A study of Rattus norvegicus with 20 samples.

Results

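ACTH (adrenocorticotropic hormone) was compared with saline in the hypothalamic arcuate nucleus of female rats in which infantile spasms had been triggered. The comparison holds 8 of the 20 samples of the series, 4 of the condition BYA (betamethasone, spasms, ACTH) and 4 of the condition BYS (betamethasone, spasms, saline), and a sample belongs to it by the letters of its condition alone. All 8 were Sprague-Dawley pups whose mothers received 2 injections of betamethasone, a synthetic corticosteroid, at 0.4 mg/kg each on gestational day 15. The pups were given NMDA (N-methyl-D-aspartic acid), which triggers flexion spasms in primed rats, on postnatal days 12, 13 and 15. Per the labels, ACTH or saline was given on days 13, 14 and 15 ahead of NMDA. The methods of the study instead list the ACTH doses on days 12, 13 and 14, starting after the first NMDA. Which schedule applies was not settled here. The nuclei were taken on day 15. The other 3 conditions are used only as background: SNS (prenatal saline, no spasms), BNS (betamethasone, no spasms) and BYP (betamethasone, spasms and PMX53, an antagonist of the complement receptor C5ar1). The litter of each rat is not given in the sources used here, so that the limma p-values measure only the spread between samples within the 5 conditions, over all 20 samples, and the spasms are chemically triggered, which limits BYS as a model of the human disorder.

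ACTH is a peptide cut from proopiomelanocortin (Pomc). It acts on the melanocortin 2 receptor of the adrenal cortex to release corticosteroids, which enter the brain and act on the glucocorticoid receptor Nr3c1 and the mineralocorticoid receptor Nr3c2, and melanocortin peptides also act on the receptors Mc3r and Mc4r in the hypothalamus. The arcuate nucleus holds the Pomc neurons themselves and the Agrp and Npy neurons that oppose them. ACTH is a first-line drug for infantile spasms.

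The tissue label was checked against its markers. Pomc, Agrp, Npy, Th and Ghrh were well above background in all 20 samples, as was the pituitary hormone chain Lhb, while Cga was in 15 samples, Gh1 in 1 and Prl in 0. Markers of neighbouring nuclei were also present in all 20, among them Nr5a1 and Fezf1 of the ventromedial nucleus and Pmch of the lateral hypothalamus. The partner channels of BYA replicates 3 and 4 held males of a different series, which by the array names were of the condition SNS. The channel of BYA replicate 3 is uncertain, since its dye label and the order of names on its array differ. Of the Y-linked genes, Uba1y was well above background in 0 of 20 samples. The dim probe of Sry lay between 7.52 and 8.03 on the log2 scale over all 20, with BYA replicate 3 the highest. It was well above background in 4 of 4 BYS samples but in 1 of 4 BYA samples, and not in BYA replicate 3. Whether the right channel was read for that sample was not settled by these probes.

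The arrays of the 2 conditions differed in brightness before any gene was compared. In BYA, 55.1% to 71.2% of the spots were well above background (mean 64.1% ± 7.51, SD, n = 4), against 72.8% to 84.5% in BYS (79.0% ± 5.18, n = 4). The median signal was 6.55 to 10.5 times the median background in BYA and 14.0 to 19.8 times in BYS, and neither measure overlapped between the conditions (two-sided exact permutation test, p = 0.0286 for each, the smallest that 4 against 4 samples allow). The test took each channel as a unit. Channels share arrays and slides, so this p does not measure the spread between slides. There were 540 genes well above background in all 4 BYS samples and in no BYA sample, and 0 genes the other way round. The 4 BYS samples lay on 1 slide and the BYA samples on 2 other slides, so that slide and treatment cannot be told apart.

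**Figure D1:**
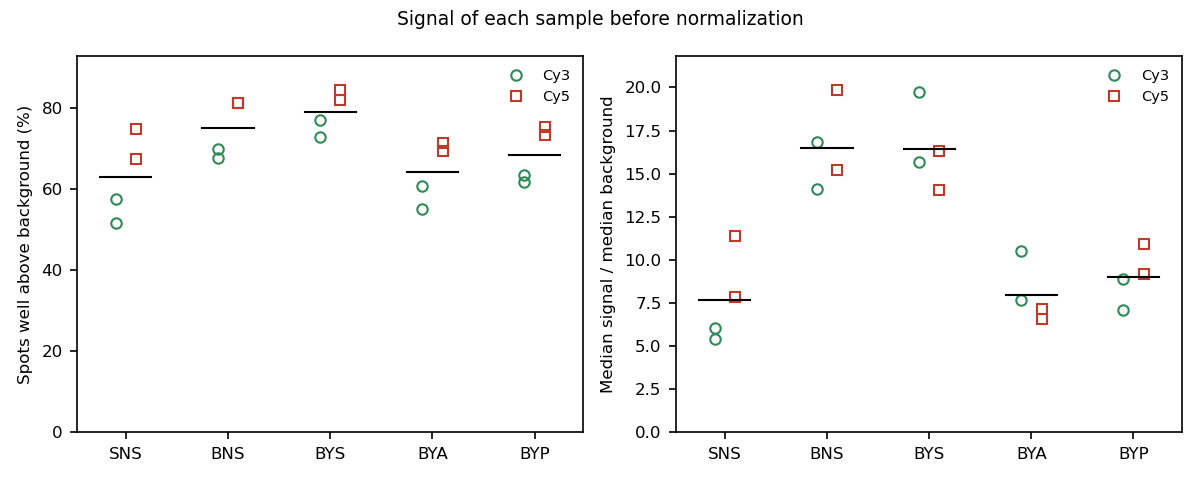
Share of spots well above background in percent (left) and median signal over median background (right) in each of the 20 samples by condition, before normalization. Circles are Cy3 channels, squares Cy5 channels and black lines means of 4 samples. All 4 BYA samples sit below all 4 BYS samples in both panels, and SNS and BYP also lie below BNS and BYS in the right panel.

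No gene passed the test between ACTH and saline. Of 17086 genes, limma called 0 (0%) after Benjamini-Hochberg adjustment at 0.05, and the smallest adjusted p was 0.110, for the fractalkine receptor Cx3cr1. At an unadjusted limma p under 0.05 there were 1379 genes (8.07%), with 649 (3.8%) higher and 730 (4.27%) lower in BYA. This balance turned with the filter. With only probes well above background in all 8 samples, 500 genes were higher and 399 lower. The heteroscedastic test of the methods gave 1081 genes unadjusted and 0 after the same adjustment. A combined criterion modelled on that of the study asks for an unadjusted p under 0.05 and for a ratio above a limit. Here the limit was set by the spread between samples of both conditions only, while that of the study also includes technical noise. With this simpler limit, 661 genes (3.87%) were taken as up and 335 (1.96%) as down. Counts with the study's own limit were not obtained. The 4 BYA values lay above all 4 BYS values in 452 genes (2.65%) and below them in 245 (1.43%). The 95% interval of a difference reached 0.28 (log2), or 1.22-fold, to either side at the median gene. Smaller differences would mostly not reach an unadjusted p under 0.05 with 4 samples each. To pass adjustment, a difference had to be larger still. The difference lay between −0.25 and 0.25 in 85.3% of the genes.

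These counts moved with single samples and with the scaling. Without BYA replicate 3, limma called 26 genes (9 higher, 17 lower). Without BYS replicate 3, 902 genes had an unadjusted p under 0.05, and without BYS replicate 4 the combined criterion called 1738 genes. The share of higher genes among those with an unadjusted p under 0.05 was 47.1%, but 70.1% of 792 genes with median scaling of the channels and 31.8% of 1728 with loess normalization within arrays, which leaves 2 BYA samples. For the combined criterion this share was 66.4%, 77.3% with median scaling and 53.9% with loess. The mean distance between a BYA and a BYS sample was 0.354 (log2, root mean square over genes), between that of BYA samples on different arrays (0.368) and that of BYS samples on different arrays (0.331).

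**Figure D2:**
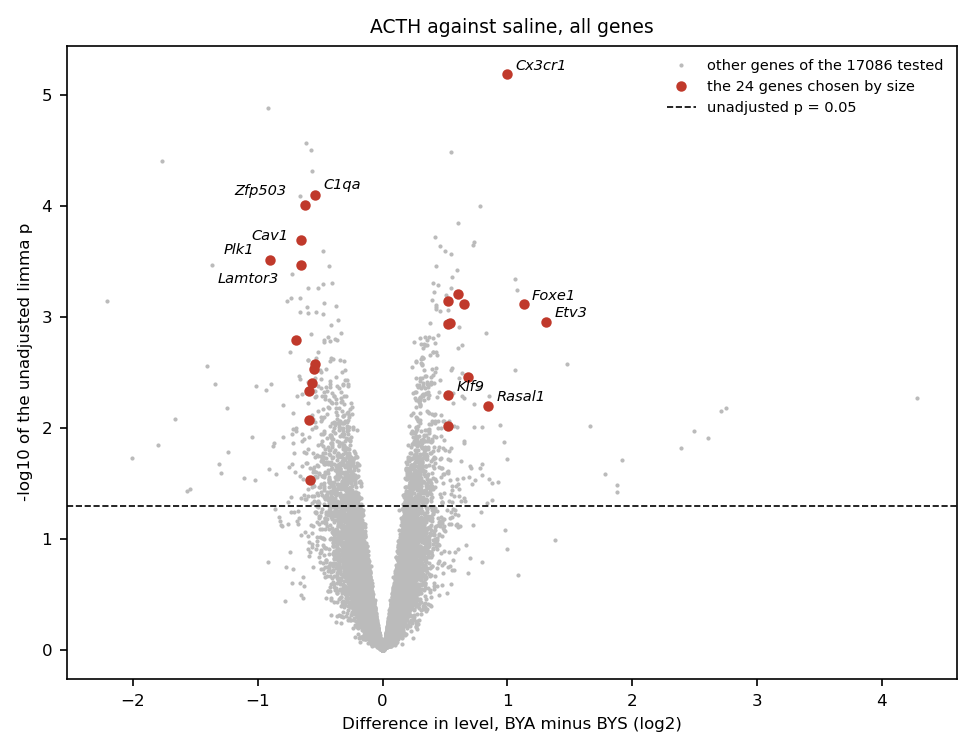
Difference in level between BYA and BYS in log2 units (horizontal) against −log10 of the unadjusted limma p (vertical) for 17086 genes, with the 24 genes chosen by size in red. Cx3cr1 lies highest, with a difference of 1.00 and an adjusted p of 0.110.

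Among the genes with an unadjusted p under 0.05, well above background in all 8 samples and with no overlap between the conditions, 132 were higher and 58 lower in BYA. Of the 12 largest in each direction, 11 higher and 12 lower genes are described here by their values, and each of the 24 had an adjusted limma p of at least 0.110. Their direction held in all 24 alternatives of processing and sample choice.

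Cx3cr1, the receptor through which microglia sense neuronal fractalkine, measured 11.46, 11.77, 11.96 and 11.72 (normalized log2 level) in BYA replicates 1 to 4 and 10.44, 10.59, 10.55 and 11.33 in BYS. The difference was 1.00 (SE 0.16), or 2.00-fold, with an adjusted p of 0.110. Only BYS replicate 4 came close to the ACTH samples, and without it the adjusted p was 0.00250. Cx3cr1 was called in 9 of the 24 alternatives, with adjusted p between 0.00250 and 0.784.

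Etv3, a repressor of the ETS family, measured 10.27, 9.78, 9.56 and 10.48 in BYA and 8.95, 8.57, 8.19 and 9.14 in BYS, a difference of 1.31 (SE 0.34, adjusted p 0.292). Foxe1, a forkhead factor of thyroid development, measured 11.75, 10.94, 11.12 and 11.36 in BYA and 10.13, 9.52, 10.08 and 10.92 in BYS, a difference of 1.13 (SE 0.28, adjusted p 0.256). In both genes the BYS samples spread widely, and BYS replicate 4 was the one nearest to the BYA samples.

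Klf9, a Krüppel-like factor known as a direct target of the glucocorticoid receptor, measured 12.05, 11.97, 11.80 and 12.06 in BYA and 11.67, 11.29, 11.68 and 11.16 in BYS (difference 0.52, SE 0.16, adjusted p 0.394). Pnmt, which makes adrenaline from noradrenaline, measured 9.86, 10.08, 9.86 and 10.03 in BYA and 9.06, 9.14, 9.64 and 9.58 in BYS (difference 0.61, SE 0.15, adjusted p 0.256). The ACTH samples were narrow in both genes and all lay above the highest saline sample. The other 6 higher genes described were Rasal1, a Ras GTPase-activating protein (0.84), Tbx21, a T-box factor of helper T cells (0.68), Mb, the oxygen store myoglobin (0.65), Tsbp1 (0.54), the carbonic anhydrase Car14 (0.53) and the deubiquitinase Usp2, an output of the circadian clock (0.52). Single saline samples weighed on 3 of these, with 0.40 for Tbx21 without BYS replicate 3, 0.55 for Rasal1 without BYS replicate 1 and 0.35 for Usp2 without BYS replicate 2. The probe of Tbx21 averaged 15.32 in BYA and 14.64 in BYS, brighter than that of Pomc (14.40 and 14.30). Whether it reads Tbx21 RNA alone was not tested.

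**Figure D3:**
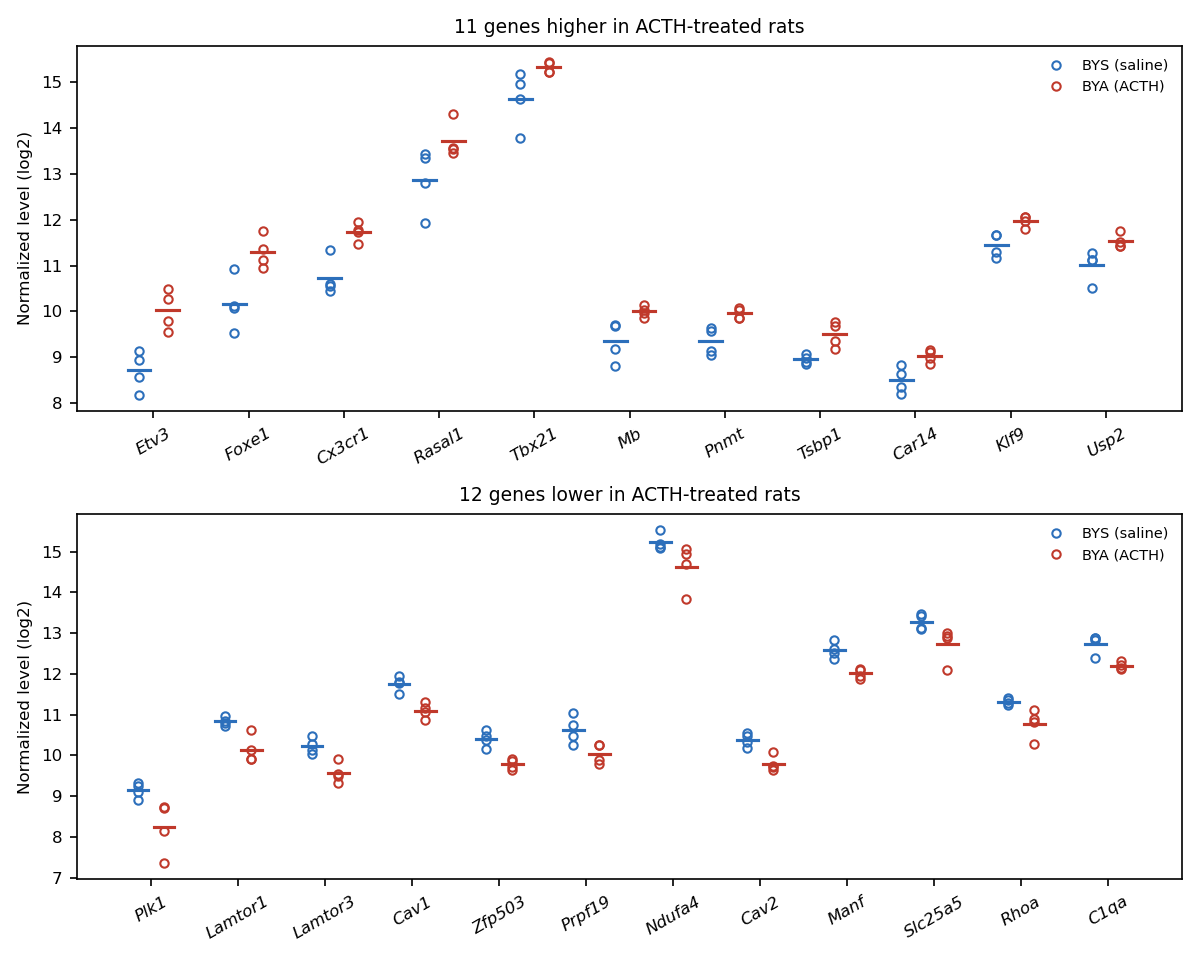
Normalized log2 level in each sample of 11 genes with the largest positive (top) and 12 with the largest negative (bottom) differences, BYS in blue and BYA in red, with a line at the mean of 4 samples. In each of the 23 genes the groups do not overlap, which the choice of the genes required.

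Among the 12 lower genes, Plk1, a kinase of mitosis, differed most. It measured 7.36, 8.14, 8.72 and 8.71 in BYA and 9.09, 9.31, 8.90 and 9.26 in BYS, a difference of −0.90 (SE 0.20, adjusted p 0.227). BYA replicate 1 was the lowest, and all 4 BYA samples lay below the saline samples. The adjusted p without BYA replicate 3 was 0.0340, with 0.000860 to 0.890 over all alternatives.

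C1qa, a chain of the first complement component made by microglia, measured 12.31, 12.14, 12.12 and 12.21 in BYA and 12.82, 12.38, 12.87 and 12.87 in BYS (difference −0.54, SE 0.11, adjusted p 0.153). Zfp503, a zinc finger factor, measured 9.64, 9.86, 9.71 and 9.91 in BYA and 10.15, 10.48, 10.61 and 10.37 in BYS (difference −0.62, SE 0.13, adjusted p 0.153). The ACTH samples of both genes lay close together, and BYS replicate 2 was the saline sample nearest to them in C1qa.

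Cav1 and Cav2, caveolins that coat membrane caveolae, were in this set. Cav1 measured 11.30, 10.86, 11.16 and 11.07 in BYA and 11.50, 11.94, 11.78 and 11.80 in BYS (difference −0.65, SE 0.14, adjusted p 0.226). Cav2, its partner, differed by −0.58 (SE 0.25, adjusted p 0.547). So were 2 subunits of the Ragulator, which holds the mTORC1 kinase at the lysosome. Lamtor1 measured 9.91, 10.12, 9.90 and 10.61 in BYA and 10.95, 10.85, 10.73 and 10.80 in BYS (difference −0.70, SE 0.19, adjusted p 0.329), and Lamtor3 differed by −0.65 (SE 0.15, adjusted p 0.227). The other lower genes were the splicing ligase Prpf19 (−0.59), the respiratory chain subunit Ndufa4 (−0.59), the endoplasmic reticulum stress factor Manf (−0.56), the ADP/ATP carrier Slc25a5 (−0.55) and the small GTPase Rhoa (−0.54). The probes of Slc25a5 did not match in size, with −0.55 from the one without a missing value and −0.19 from the brighter one. Without BYA replicate 4 Ndufa4 differed by −0.31, and without BYA replicate 3 Slc25a5 differed by −0.36.

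The other 3 conditions place these levels. Cx3cr1 averaged 11.95 ± 0.12 (SD, n = 4) in SNS, 11.22 ± 0.19 in BNS and 11.34 ± 0.27 in BYP, against 11.73 ± 0.20 in BYA and 10.73 ± 0.41 in BYS. Foxe1 averaged 11.27 ± 0.46 in SNS, 10.19 ± 0.55 in BNS and 10.67 ± 0.21 in BYP, against 11.29 ± 0.35 in BYA and 10.16 ± 0.57 in BYS. Klf9 differed from these, at 10.86 ± 0.20 in SNS, 11.24 ± 0.28 in BNS, 12.17 ± 0.30 in BYP, 11.97 ± 0.12 in BYA and 11.45 ± 0.27 in BYS. The SNS mean of Klf9 leaves out replicate 4, which had no value. Of the 12 higher genes, the mean lay above that of BYS in 11 for SNS, 10 for BNS and 11 for BYP, and of the 12 lower genes it lay below in 4, 9 and 12. The genes were chosen on the BYS values, so these counts are a description only. SNS, BYA and BYP are the conditions with the dimmer arrays, and the part of array brightness in these levels was not tested.

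Of the melanocortin system, the route by which ACTH-like peptides act, 12 of 16 genes listed were measured. Of these genes, 0 had an unadjusted p under 0.05 (0%, against 8.07% of all genes). Their median difference was 0.08, against 0.00 over all genes (−0.0027). The precursor gene Pomc measured 14.60, 14.63, 13.94 and 14.42 in BYA and 14.14, 13.81, 14.61 and 14.65 in BYS, and the conditions overlapped fully (difference 0.10, 95% interval −0.47 to 0.67). Of the receptors, Mc4r differed by −0.02 (−0.29 to 0.26) and Mc3r by 0.20 (−0.31 to 0.71). Agrp, the antagonist of these receptors, measured 14.92, 14.98, 14.95 and 14.84 in BYA and 14.54, 14.60, 14.31 and 14.69 in BYS. All 4 ACTH samples of Agrp were higher, yet its difference of 0.39 had an interval from −0.43 to 1.21, since the spread is taken from all 5 conditions. The processing enzymes Pcsk1 (0.29), Pcsk2 (0.10), Cpe (0.01) and Pam (0.07) gave intervals that include 0. Of the corticotropin-releasing hormone system 5 of 9 genes were measured and 0 had an unadjusted p under 0.05, with Crh itself at −0.20 (−1.01 to 0.61).

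Among 36 of 40 corticosteroid genes measured, covering receptors, chaperones, converting enzymes and target genes, 3 were higher and 0 lower at an unadjusted p under 0.05 (8.33%, against 8.07% of all genes), and the median difference was −0.05, but 0.08 with median scaling and 0.08 without BYA replicate 3. The 3 were Klf9, described above, Klf15 and Nedd9. Klf15, a Krüppel-like factor that responds to glucocorticoids, measured 11.08, 11.25, 10.40 and 11.23 in BYA and 10.47, 10.86, 10.33 and 10.38 in BYS (difference 0.48, SE 0.16, adjusted p 0.465). BYA replicate 3 lay within the saline samples and the other 3 above all of them. Nedd9, a scaffold protein of cell adhesion, differed by 0.19 (SE 0.08, adjusted p 0.578).

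The best known corticosteroid targets gave values on both sides. Fkbp5, a co-chaperone of the glucocorticoid receptor, measured 12.30, 12.49, 10.96 and 12.23 in BYA and 11.28, 11.58, 11.88 and 12.23 in BYS. The difference was 0.25 (−0.26 to 0.76), and 0.59 without BYA replicate 3, which lay below every other sample of both conditions. The 8 samples of SNS and BNS ranged from 10.95 to 11.33 and the BYP samples from 12.04 to 12.57. BYA replicate 3, the sample of uncertain channel, lay within the range of SNS and BNS. Tsc22d3, the anti-inflammatory target also called GILZ, differed by −0.07 (−1.06 to 0.92) and the kinase Sgk1 by −0.08 (−0.42 to 0.26). The receptors Nr3c1 and Nr3c2 differed by 0.01 (−0.17 to 0.20) and 0.21 (−0.35 to 0.77). Dusp1, Per1, Zbtb16 and Arrdc2 were well above background in all 4 BYS samples but in 2 of 4 BYA samples, so their values are weakly measured in the treated rats.

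**Figure D4:**
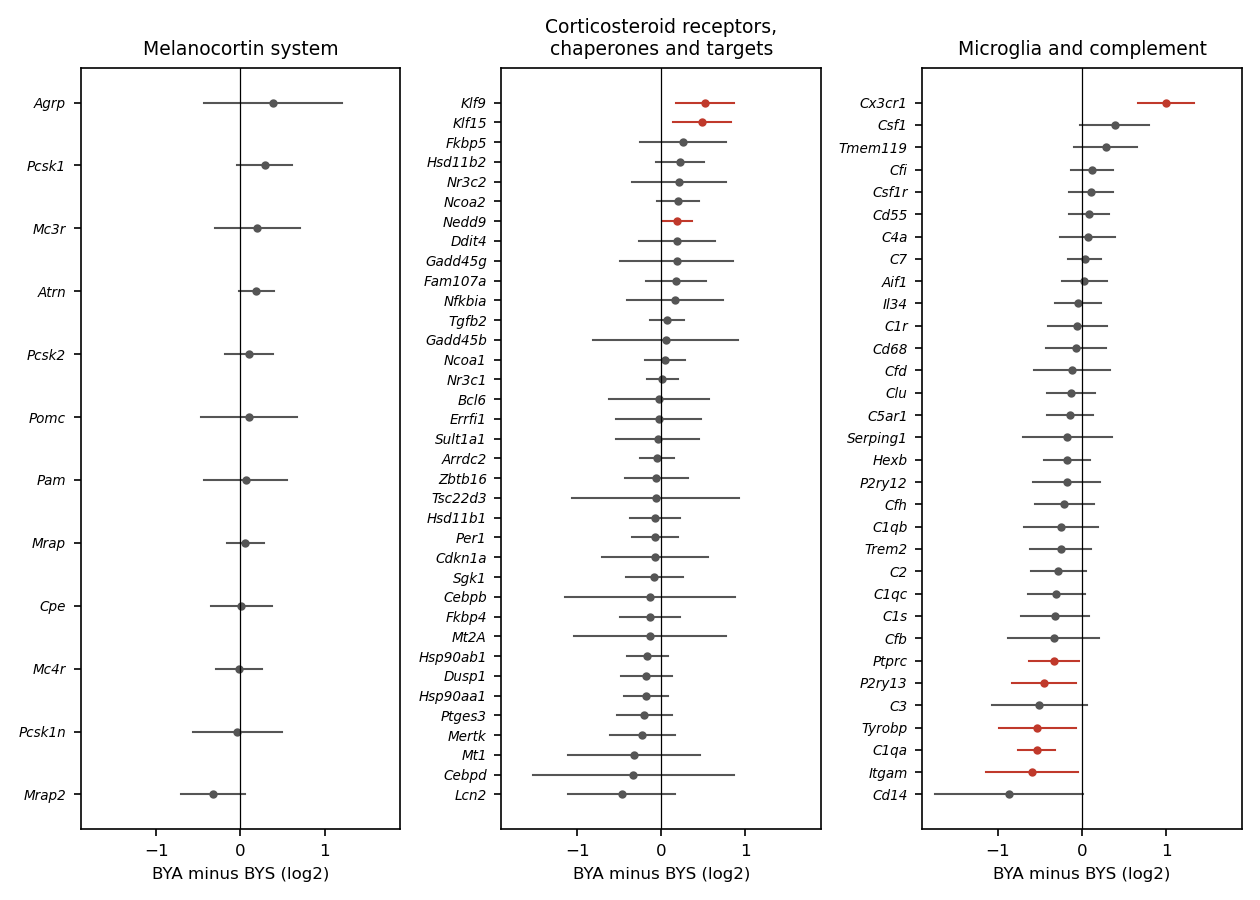
Difference between BYA and BYS (log2, points) with its 95% interval (lines) for the measured genes of the melanocortin system, the corticosteroid list and the microglia and complement list. Red marks an unadjusted p under 0.05, which 0, 3 and 6 genes reached, and no gene passed adjustment.

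Of the neurons of the arcuate nucleus, 24 of 29 genes listed were measured, 18 with a positive and 6 with a negative difference. Of these genes, 0 had an unadjusted p under 0.05 (0%, against 8.07% of all genes). Npy, an appetite peptide of the Agrp neurons, differed by 0.32 (−0.25 to 0.89), Cartpt by 0.29 (−0.08 to 0.66), Th, which starts dopamine synthesis, by 0.35 (−0.05 to 0.75) and Pdyn by −0.48 (−1.21 to 0.25). The median of the list was 0.10, and 0.25 with median scaling, where the median over all genes was 0.03. Of 23 genes of GABA receptors and their trafficking, 1 was higher at an unadjusted p under 0.05 (4.35%), the receptor-associated Gabarap (0.28, adjusted p 0.565). Of 18 genes of GABA synthesis and transport 1 was (5.56%), the glutamine carrier Slc38a1 (0.52, adjusted p 0.532). Gad1, a GABA-synthesizing enzyme, differed by −0.14 (−0.66 to 0.37) on its dim probe, well above background in 2 of 4 BYA samples, and by 0.22 on its bright probe, which had a missing value. The value of the dim probe was 0.22 without BYA replicate 3, and its sign turned in 6 of the alternatives. The chloride exporter Slc12a5, which sets the sign of GABA responses, differed by 0.08 (−0.07 to 0.24).

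There were 0 genes with an unadjusted p under 0.05 among 25 glutamate receptor genes, 14 genes of glutamate handling, 33 genes mutated in human infantile spasms and related epilepsies, 15 calcium channel genes and 35 genes of the cyclic AMP pathway through which melanocortin receptors signal. Each share was 0%, against 8.07% of all genes. The spasm genes with the lowest values were the factor Mef2c (−0.49) and the sodium channel Scn2a (−0.48). Of 13 potassium channel genes 1 was higher (7.69%), the G-protein-gated channel Kcnj3 (0.41, adjusted p 0.537). Of 20 genes of steroid synthesis 1 was lower (5%), Hsd17b12 (−0.59, adjusted p 0.394).

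Microglia and complement genes had more negative than positive differences. Of 32 measured, 1 was higher (Cx3cr1) and 5 lower at an unadjusted p under 0.05 (18.8%, against 8.07% of all genes), 23 had a negative difference, and the median was −0.18. The median lay between −0.24 and −0.12 when single samples were left out and was −0.22 with median scaling. In bulk tissue fewer cells of a type and less RNA per cell cannot be told apart. Beside C1qa the lower genes were Tyrobp, an adaptor of microglial receptors (−0.53), Itgam, the complement receptor chain also called CD11b (−0.60), the purine receptor P2ry13 (−0.46) and the leukocyte phosphatase Ptprc (−0.34), with adjusted p from 0.537 to 0.570 for these 4. The probes of Itgam disagreed, with −0.60 on the dimmer and −0.06 on the brighter. The dimmer probe of Itgam, P2ry13 and Ptprc were each well above background in 2 of 4 BYA samples only. These probes passed the filter through conditions other than BYA, so the share of 18.8% rests partly on genes weakly measured in BYA. BYS replicates 3 and 4, which share an array, held the highest saline values of Tyrobp and Itgam. Without these 2 samples the differences were −0.19 for Tyrobp, −0.23 for Itgam, −0.15 for P2ry13 and −0.20 for Ptprc, against −0.41 for C1qa, and without BYS replicate 3 alone P2ry13 and Ptprc each differed by −0.20.

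Other defining genes of microglia gave values on both sides. Aif1 differed by 0.03 (−0.24 to 0.30), Csf1r by 0.10 (−0.15 to 0.36), P2ry12 by −0.19 (−0.58 to 0.21), Tmem119 by 0.28 (−0.10 to 0.66) and Trem2 by −0.26 (−0.62 to 0.10). The partner chains C1qb (−0.25, −0.69 to 0.19) and C1qc (−0.31, −0.65 to 0.03) had the sign of C1qa. C5ar1, the receptor of the complement fragment C5a, was well above background in 4 of 4 BYS and 0 of 4 BYA samples, and its difference was −0.14 (−0.42 to 0.13, adjusted p 0.826). BYA replicate 1 was the highest of the 8 samples, and the difference was 0.23 with median scaling.

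Astrocyte genes, 20 measured, held 0 higher and 2 lower at an unadjusted p under 0.05 (10%, against 8.07% of all genes). Gfap, the filament protein of reactive astrocytes, differed by −0.75 (SE 0.30, adjusted p 0.537) as the mean of its probes, and in BYS it ranged from 8.86 to 10.55 against 8.85 to 9.56 in BYA. The 8 samples without spasms ranged from 8.74 to 9.15. Vim, another filament gene, differed by −0.47 (SE 0.20, adjusted p 0.564). BYS replicates 3 and 4, which share an array, were the highest 2 samples in both genes, and without them the differences were −0.13 and −0.11.

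Cytokine and chemokine genes, 40 measured, held 1 higher and 5 lower at an unadjusted p under 0.05 (15.0%, against 8.07% of all genes), with a median of −0.08. Of the lower genes 4 are given, Tlr2, a receptor of microbial products (−0.63), the tumour necrosis factor receptors Tnfrsf1a (−0.56) and Tnfrsf1b (−0.28), and the chemokine receptor Cxcr4 (−0.28), with adjusted p from 0.465 to 0.596. Tlr2 measured 9.53, 9.59, 10.51 and 10.37 in BYS and Tnfrsf1a 10.57, 10.61, 11.49 and 11.69, so that both were split by array within the saline condition. Without BYS replicates 3 and 4 they differed by −0.19 and −0.06. Each probe of Tnfrsf1b was well above background in 2 of 4 BYA samples and that of Cxcr4 in 3 of 4. In BYS all of these probes were in 4 of 4 samples. The higher gene was the monocyte chemokine Ccl7, at 10.01, 8.74, 8.06 and 10.97 in BYA and 7.63, 7.44, 8.71 and 8.11 in BYS (difference 1.48, SE 0.42, adjusted p 0.375). It was well above background in 2 of 4 BYS and 3 of 4 BYA samples only, so that the size of the difference rests partly on values near background. Its adjusted p was 0.0340 without BYA replicate 3, with 0.0318 to 1.00 over all alternatives, and the difference was 0.91 without BYA replicate 4.

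The inflammatory chemokines and the immediate early genes, which switch on within minutes of strong neuronal activity, varied widely within both conditions. They are described by their values, since the genes shown were chosen after these had been seen. Ccl3 measured 7.79 and 7.91 in BYS replicates 1 and 2 but 12.04 and 12.08 in replicates 3 and 4, so that the saline condition was split in 2. In BYA it measured 11.90, 10.97, 9.99 and 12.47. The 8 rats without NMDA ranged from 7.43 to 7.81 and the BYP rats from 11.63 to 13.37.

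Ccl2 was split likewise, with 7.42, 7.54, 10.79 and 10.32 in BYS and 11.33, 9.64, 7.46 and 11.99 in BYA, against 7.36 to 7.63 without NMDA. BYS replicates 1 and 2 and BYA replicate 3 thus lay in the range of rats that had never had NMDA. The array of BYA replicate 3 also held an SNS male without NMDA. Whether the uncertain channel of this sample bears on its levels was not tested. Of the early genes, Junb measured 10.66, 10.62, 12.85 and 12.40 in BYS and 12.66, 12.03, 10.95 and 13.10 in BYA, against 10.51 to 11.45 without NMDA. Fos measured 8.86, 9.16, 11.04 and 10.47 in BYS and 10.67, 10.47, 8.76 and 11.03 in BYA, against 8.41 to 9.44. In both, the same 3 samples lay in the range of the rats without NMDA and the other 5 lay above it.

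BYS replicates 1 and 2 share an array and BYS replicates 3 and 4 share the other, so that animal and array cannot be told apart in this split. The difference of Ccl3 was 1.38 (95% interval −0.30 to 3.06) over all samples, −0.73 without BYS replicates 1 and 2 and 3.49 without replicates 3 and 4. That of Fos was 0.35 (−0.58 to 1.28), −0.53 and 1.22 in the same order, and that of Junb was 0.55 (−0.43 to 1.53), −0.44 and 1.54. The sign of the difference in these genes turned with the saline array used. Of 28 early genes measured, Nr4a1 was higher (0.51, adjusted p 0.545) and Jun lower (−0.60, adjusted p 0.596) at an unadjusted p under 0.05. This share was 7.14%, against 8.07% of all genes. Egr1 differed by 0.79 (−0.03 to 1.61) and Fosb by 0.55 (−0.03 to 1.14). For the whole comparison, limma called 27 genes without BYS replicates 1 and 2 and 11 genes without replicates 3 and 4.

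**Figure D5:**
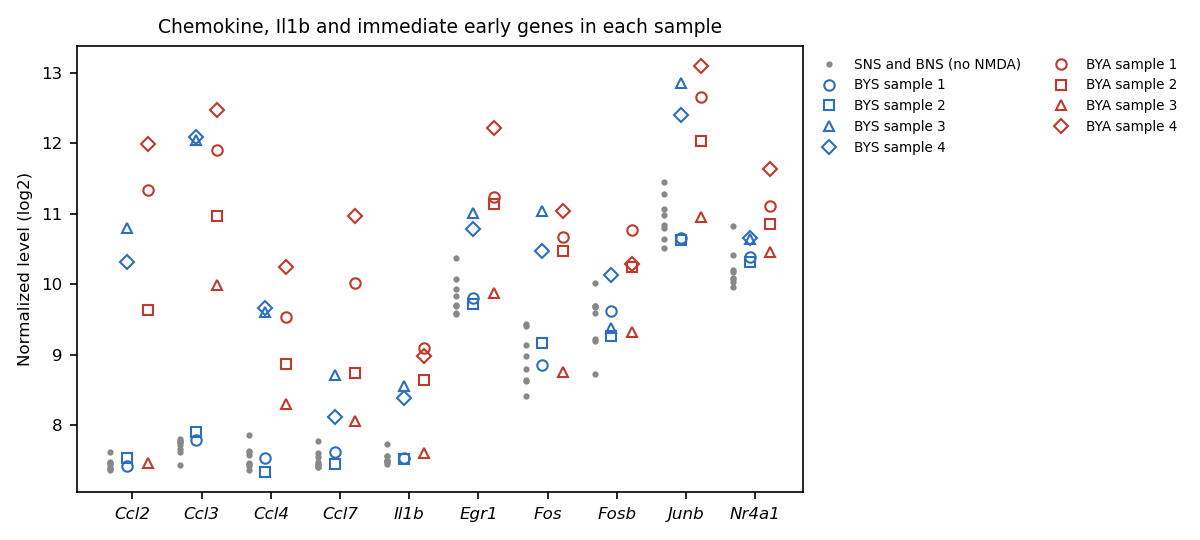
Normalized log2 level of 5 cytokine genes and 5 immediate early genes in each sample of BYS (blue) and BYA (red), with a symbol for each replicate number, beside the 8 samples of SNS and BNS without NMDA (grey). BYS replicates 1 and 2 lie in the grey range for Ccl2 and Junb, as does BYA replicate 3, while BYS replicates 3 and 4 lie above it.

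BYA replicate 3 differed from the other BYA samples in some further genes. Of the 26 genes that limma called without it, 3 are given here, chosen after their values were seen. The secreted factor Metrnl measured 7.26, 8.06, 9.54 and 7.83 in BYA and 9.42 to 9.69 in BYS, and the glycosylation enzyme Mgat2 measured 6.82, 6.80, 8.68 and 7.24 in BYA and 8.74 to 9.81 in BYS. The 8 rats without spasms ranged from 9.48 to 10.39 for Metrnl and from 8.76 to 9.47 for Mgat2, and the BYP rats from 9.51 to 9.89 and from 8.50 to 9.22, so that BYA replicates 1, 2 and 4, which lie on 1 slide, were below the other conditions in both genes. Sik1, a kinase induced by cyclic AMP, measured 10.27, 9.85, 9.46 and 10.26 in BYA and 9.26 to 9.50 in BYS. Over all samples the differences were −1.37, −1.77 and 0.60 (adjusted p 0.227, 0.112 and 0.340), and Mgat2 was well above background in 1 of 4 BYA samples. That BYA replicate 3 was the BYA sample nearest to saline in these genes was fixed by their choice. Over all genes its mean distance to the other BYA samples was 0.367, against 0.370 for BYA replicate 1. Its mean distance to the BYS samples was smaller, at 0.349. BYA replicate 2 was also nearer to BYS (0.318) than to BYA (0.336), while BYA replicates 1 and 4 were nearer to BYA. The slide of BYA replicate 3 differs from that of the other BYA samples.

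Groups of genes that share a role with the leading genes were looked up after the values had been seen and are given as description. Of 22 circadian clock and output genes, 6 were higher and 0 lower at an unadjusted p under 0.05 (27.3%, against 8.07% of all genes), and the list was drawn up after Klf9 and Usp2, which it counts, had been seen. They were Klf9, Usp2, Bhlhe40 (0.37), the activator Npas2 (0.31), the output factor Dbp (0.29) and the repressor Nr1d1 (0.25). Over the list, 13 genes had a positive and 9 a negative difference, and the median was 0.055. The core gene Bmal1 differed by −0.25 (−0.50 to 0.00) and Per2 by −0.06 (−0.30 to 0.18). Nfil3 differed by −0.40 and Cry1 by −0.27. Npas2 did not overlap between the conditions, at 9.03, 9.16, 8.90 and 8.94 in BYA and 8.73, 8.73, 8.55 and 8.78 in BYS. Of 13 Ragulator and mTORC1 genes 2 were lower (15.4%, Lamtor1 and Lamtor3), 11 had a negative difference and the median was −0.10. The subunit Lamtor2 differed the other way, by 0.21 (−0.04 to 0.46). On its dimmer probe, which had a missing value, the difference was 0.36 (unadjusted limma p 0.00816). Of 6 caveolar genes only Cav1 and Cav2 had an unadjusted p under 0.05 (33.3%), and of 11 catecholamine genes only Pnmt (9.09%).

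Markers of other cells in the dissection overlapped between the conditions as sums. The summed level of 9 red blood cell genes was 17.46 to 18.30 (log2) in BYA and 17.33 to 17.99 in BYS, that of 9 choroid plexus genes 13.43 to 14.40 and 13.30 to 14.26, and that of 23 oligodendrocyte genes 15.37 to 15.88 and 15.51 to 16.02. The summed level of the 24 arcuate genes was 17.22 to 17.45 in BYA and 16.96 to 17.40 in BYS, and that of the 32 microglia and complement genes 16.56 to 16.90 and 16.61 to 16.99. Each of these ranges overlapped. Single genes with an unadjusted p under 0.05 included Olig2 of the oligodendrocyte lineage (−0.33), the vascular receptors Kdr (−0.45) and Flt1 (−0.32) and Adcyap1 of the ventromedial nucleus (−0.43). Flt1 was well above background in 2 of 4 BYA samples only.

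Genes of the cell's basic machinery were spread on both sides. Of 96 ribosomal protein genes 5 were higher and 6 lower at an unadjusted p under 0.05 (11.5%, against 8.07% of all genes) and the median was 0.01, with Rps25 (0.39) and Rpl27a (−0.66) as examples. Ribosomal protein genes have many near-identical copies, so single probes may read more than 1 of them. Of 95 genes of oxidative phosphorylation 1 was higher, Cox6b2 (0.45), and 4 lower, among them Ndufa4 and Sdha (−0.41, and −0.17 without BYA replicate 1), a share of 5.26% with a median of 0.02. Of 41 proteasome genes 1 was lower (2.44%), Psma6 (−0.39, and −0.21 without BYA replicate 2).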

How the data were processed

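Each Cy3 or Cy5 channel of an Agilent 2-colour rat array held 1 animal, and 82 columns of another series' samples in these files were not used. Per the file headers, the deposited signals and local backgrounds are intensities written by Feature Extraction 11.5.1.1 (10.7.3.1 in the submitters' processing notes), and flags mark spots above background or outlying. The male samples were not analysed here. limma 3.58.1 in R 4.3.3 corrected the background (normexp, offset 50) and quantile normalized the 20 channels. Outlying spot values (1.18%) were dropped. Probes had to exceed background, by the flags of 0.5 or more of their spots, throughout 1 or more conditions (19883 probes). Gene values are means over probes (17086 genes), using those without a missing value where there were any. Accessions of 61.4% of the 30367 probes matched RefSeq symbols, and the others kept the file's name. BYA was compared with BYS in 1 limma fit of all 20 samples with dye as a covariate and Benjamini-Hochberg adjustment. The code was tested on simulated data.

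Genes are named by these rules: up to 12 per direction by size (as described), list members with an unadjusted p under 0.05, and 15 genes of the ACTH, steroid and spasm literature. A few genes that these rules choose are not reported here. Lists and members were chosen with earlier results of these data known. The alternatives were other background corrections, scalings, filters, blocks, probes and samples.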

Additional observations from a re-analysis of the deposited data

Results flagged for a closer look

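Of 162 sets of 4 values (82 named genes in BYA and BYS), 9 held a sample far from the other 3, or 5.56%, and chance gives about 1 in 20. In BYA, these were Rasal1 in replicate 2 (14.31, next 13.56), Slc25a5 in replicate 3 (12.10, next 12.88), Nr3c2 in replicate 1 (8.54, next 9.11), Fkbp5 in replicate 3 (10.96, next 12.23) and Tyrobp in replicate 2 (11.81, next 12.51). In BYS, these were Cx3cr1 in replicate 4 (11.33, next 10.59), C1qa in replicate 2 (12.38, next 12.82), Cxcr4 in replicate 3 (9.06, next 8.94) and Tnfrsf1b in replicate 1 (8.03, next 8.22). All are normalized log2 levels.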

How the results depend on the processing

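The 24 leading genes kept their direction in all 24 alternatives, and of the 82 named genes 70 did. Against 0 genes called by limma, 6 were called without background correction, 9 from the processed signals, 225 with loess and 123 with the slide as a random block, whose estimated correlation was −0.128. With the array as a random block limma called 0 genes, and the estimated correlation within an array was 0.365. The main fit took channels that share an array as independent, so its p-values and intervals do not allow for this correlation. Leaving out single samples gave 0 to 26 calls, 902 to 1864 genes with an unadjusted p under 0.05 and 721 to 1738 genes by the combined criterion. The 1379 genes with an unadjusted p under 0.05 became 792 with median scaling, 2605 without a filter on probes, 899 with probes well above background in all 8 samples, 742 with the array as a random block and 2757 with the slide. The 996 genes of the combined criterion became 576 with median scaling and 1944 without a filter. The filters change the number of genes tested, and for the others the cause was not tested. Of the settings added after seeing the data, median scaling without BYA replicate 3 gave 4 calls and 865 genes with an unadjusted p under 0.05, processed signals without it 32 calls, and leaving out BYS replicates 1 and 2 or 3 and 4 gave 27 and 11 calls. The combined criterion has no form with a block.

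Samples with the same replicate number in BYA and BYS did not pair, with correlations of their deviations from −0.107 to 0.280 (mean 0.0926). With the replicate number as a block limma called 2 genes, Cx3cr1 and an unnamed probe, and 1511 had an unadjusted p under 0.05.

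The limits are 4 samples per condition, channels that share arrays but were taken as independent, slides that follow the condition, dimmer arrays in BYA, and the uncertain channel of BYA replicate 3.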
